A study of Mus musculus with 6 samples.

Results

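Expression of 10 genes that mark the smooth muscle cells and pericytes around blood vessels was examined in dental pulp of mouse molars. The genes were taken by name from a list of known markers, with no threshold on a measured value. Earlier results of these data were known when the choice was made. All 10 were found among the 27506 genes of the count table. They were *Acta2*, *Tagln*, *Myh11*, *Cnn1*, *Myl9* and *Des*, which encode parts of the contractile apparatus, and *Rgs5*, *Cspg4*, *Mcam* and *Kcnj8*, which are commonly used to find pericytes. All 10 passed edgeR's filter on low counts. In *Ror2* mutant pulp, *Mcam* was higher and passed the test in the whole-table fit, *Des* and *Rgs5* were fitted lower and narrowly missed it, and *Acta2*, *Tagln* and *Myl9* differed by less than the libraries of a group did.

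Smooth muscle cells wrap arteries and larger vessels, and pericytes sit on capillaries, and both are called mural cells. Mural cells contract when myosin light chain is phosphorylated, and they share a program of contractile genes that the transcription factor SRF switches on through short DNA elements called CArG boxes. In the pulp, perivascular cells that express *Acta2* are also known as a source of mesenchymal cells. None of the 10 genes is made by mural cells alone, since *Des* is abundant in skeletal muscle, *Mcam* is also found on endothelial cells and *Acta2* and *Tagln* appear in other contractile mesenchymal cells.

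RNA was taken from dental pulp of the mandibular first molar of C57BL/6 mice at P3.5, that is 3.5 days after birth. The 3 control libraries were labelled with the genotype Ror2fl/fl, which names no Cre, and the 3 mutant libraries with the genotype Osr2-Cre;Ror2fl/fl. All 6 libraries therefore came from mice with floxed *Ror2* alleles, and no library from mice with Cre alone was analysed here, so the deletion and the presence of Cre cannot be told apart. Cre driven by *Osr2* acts in mesenchymal cells of the tooth and in the surrounding jaw bone, and not in epithelial cells of the tooth. Whether a library came from 1 animal or from pooled animals is not given, so p-values measure the spread between these libraries, which may be technical. The title of control library 1 carries the letters WW where those of control libraries 2 and 3 carry OW. Titles of the mutant libraries carry OR, and none of these letters is explained.

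On mm10, with GENCODE M21 gene models, *Acta2* lies at chr19:34241090-34255590, *Kcnj8* at chr6:142564837-142571614 and *Myh11* at chr16:14194535-14291372, all on the minus strand. *Myl9* lies at chr2:156775420-156781658, *Des* at chr1:75360329-75368579 and *Rgs5* at chr1:169655501-169695813, on the plus strand. Chromosome 9 carries *Cnn1* (chr9:22099216-22109630), *Mcam* (chr9:44134469-44142727) and *Cspg4* (chr9:56865033-56899870) on the plus strand and *Tagln* (chr9:45929619-45936058) on the minus strand. Values of a gene are counts over its exons. *Mcam* overlaps an antisense gene, *Gm10687*, and the number of 75-base runs they have in common is below 20.

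Promoters of *Acta2* and *Myl9* are shown because both windows hold CArG or CArG-like boxes. Both genes, together with *Tagln*, were also highest in the same control library, by a narrow margin for *Myl9*, and in the same mutant library. *Mcam* was highest in those same libraries too, and its window holds no such box, so this shared order does not single out genes with the boxes. The window of *Rgs5*, whose order among the control libraries was different, is shown for comparison. Each sequence is the RefSeq window of GRCm38.p6 from 250 bases before to 50 bases after the transcription start, written 5′ to 3′ on the strand of the gene. RefSeq windows were matched for 8 of the 10 genes, and those of *Tagln* and *Myh11* were not among them. Capitals mark CArG and CArG-like boxes, that is a pair of C, a core of 6 bases and a pair of G, and the motif reads alike on both strands. The core of a CArG box holds only A and T, and that of a CArG-like box holds 1 G or C.
Acta2: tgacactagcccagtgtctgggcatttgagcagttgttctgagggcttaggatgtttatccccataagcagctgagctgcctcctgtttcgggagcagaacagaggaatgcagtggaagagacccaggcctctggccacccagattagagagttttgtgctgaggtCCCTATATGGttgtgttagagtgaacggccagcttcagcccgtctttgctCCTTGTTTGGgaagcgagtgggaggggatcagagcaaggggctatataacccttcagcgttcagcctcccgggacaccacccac
Myl9: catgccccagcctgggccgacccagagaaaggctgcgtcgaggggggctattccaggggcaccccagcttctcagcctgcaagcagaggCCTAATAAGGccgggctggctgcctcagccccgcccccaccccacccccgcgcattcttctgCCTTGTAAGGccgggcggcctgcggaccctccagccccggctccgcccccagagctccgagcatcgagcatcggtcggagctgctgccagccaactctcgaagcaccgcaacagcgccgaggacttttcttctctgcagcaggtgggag
Rgs5: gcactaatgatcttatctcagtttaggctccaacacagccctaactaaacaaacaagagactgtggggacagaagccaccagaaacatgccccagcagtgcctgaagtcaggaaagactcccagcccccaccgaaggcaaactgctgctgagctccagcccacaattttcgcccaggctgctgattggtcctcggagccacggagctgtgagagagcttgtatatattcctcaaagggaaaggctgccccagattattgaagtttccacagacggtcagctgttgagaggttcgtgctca
The *Acta2* window (chr19:34255324-34255623, minus strand) held no exact CArG box and 2 CArG-like boxes, CCCTATATGG and CCTTGTTTGG. These begin 84 and 34 bases before the RefSeq start, chr19:34255373. Both lie inside the longer GENCODE span of *Acta2* given above. In the *Myl9* window (chr2:156775214-156775513, plus strand), 1 exact box, CCTAATAAGG, began 161 bases before the start and 1 CArG-like box, CCTTGTAAGG, began 99 bases before it. No such letters were found in the *Rgs5* window (chr1:169655251-169655550, plus strand) or in those of *Des*, *Cnn1*, *Cspg4*, *Mcam* and *Kcnj8*. Of 32851 promoter windows of that length, 1.63% held a CArG box and 8.5% a CArG-like box. These matches describe the letters and do not show binding.

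The libraries held between 56134770 and 62628940 estimated counts. *Ror2*, the targeted gene, had 36.2 to 38.2 CPM (counts divided by library size in units of 1e+06 counts, with TMM scaling) in control and 26.3 to 28.1 CPM in mutant libraries. Enamel protein genes of the dental epithelium were abundant in these pulp libraries. *Amelx* alone took 9.15% to 9.97% of the counts in control and 12.6% to 15.1% in mutant libraries, although it did not pass the test (edgeR adjusted p = 0.085). *Dspp*, the defining gene of odontoblasts, lay between 2908 and 7979 CPM in control and between 2515 and 6396 CPM in mutant libraries. None of the 18 endothelial genes examined was below 1 CPM in all libraries.

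To compare the markers with each other, CPM was divided by the summed length of the exons in kilobases. In control pulp *Myl9*, a regulatory light chain of myosin, was the highest, with 47 ± 1.63 CPM per kilobase (SD, n = 3). *Rgs5*, a regulator of G protein signaling, followed with 35.6 ± 8.71 CPM per kilobase. *Kcnj8*, *Acta2* and *Mcam* came next with 18.3 ± 1.32, 17.8 ± 3.25 and 14.9 ± 1.08 CPM per kilobase, and the control ranges of neighbours in this run overlapped. *Tagln* followed with 11.9 ± 2.16 and *Cspg4* with 2.74 ± 0.29 CPM per kilobase. The remaining contractile genes were scarce, with levels of 1 ± 0.206 CPM per kilobase for *Myh11*, 0.498 ± 0.112 for *Des* and 0.246 ± 0.0453 for *Cnn1*. *Myh11* and *Cnn1* are the genes of this set that are most restricted to mature smooth muscle. In mutant pulp *Myl9* and *Rgs5* kept the first and the second place, *Acta2* and *Mcam* stood above *Kcnj8*, and the other ranks were those of the control. In that order the mutant ranges of *Rgs5* and *Acta2*, of *Acta2* and *Mcam*, of *Kcnj8* and *Tagln* and of *Des* and *Cnn1* overlapped.

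**Figure D1:**
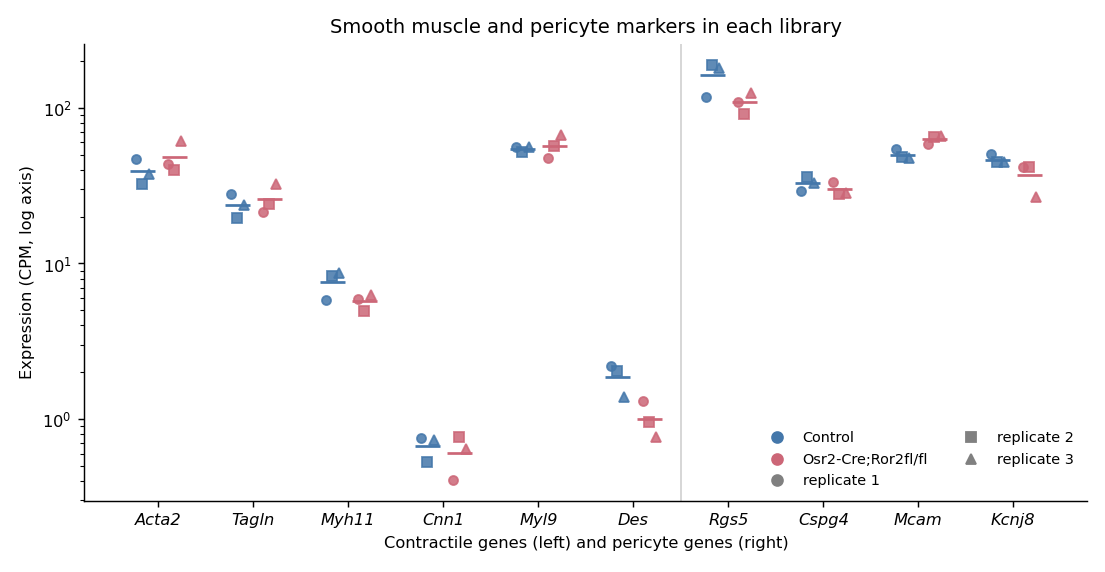
Expression of the 10 markers in CPM on a log axis, with a point for each of the 3 control (blue) and 3 Osr2-Cre;Ror2fl/fl (red) libraries, a symbol for each replicate number and a bar at the group mean. The groups are apart for *Mcam*, *Des* and *Kcnj8*, and *Rgs5* is the highest in CPM before division by length.

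The fitted changes of the contractile genes had both signs, and none passed the test. *Acta2*, which encodes smooth muscle actin, had 46.7, 32.6 and 37.8 CPM in control, against 43.8, 39.8 and 61.1 CPM in mutant libraries. Mutant library 3 was above all others, and the remaining mutant libraries lay within the control range. Its log2 fold change was 0.31 (SE 0.19, 95% interval -0.12 to 0.73, edgeR quasi-likelihood adjusted p = 0.26).

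*Tagln*, an actin-binding protein also called SM22, had 28.1, 19.5 and 23.7 CPM in control, against 21.3, 24 and 32.5 CPM in mutant libraries. The groups overlapped, with a log2 fold change of 0.13 (95% interval -0.30 to 0.55, edgeR adjusted p = 0.64). *Tagln* lies on the minus strand of chromosome 9 and overlaps *Gm48529* and *Pcsk7* on the plus strand, and 51.6% and 1.71% of all 75-base runs in its exons, as long as 1 read, also occur in them. Whether reads were counted by strand is not given in the sources used here. The sum of the 3 genes differed by 0.27 on the log2 scale (edgeR adjusted p = 0.15). That sum holds all counts of *Pcsk7*, which had 25.2, 21.8 and 22.2 CPM in control, against 27.7, 31.6 and 29.9 CPM in mutant libraries. *Gm48529* had 3.18, 3.04 and 3.34 CPM in control, against 3.75, 5.77 and 4.56 CPM in mutant libraries. The sum is therefore not a corrected value of *Tagln*.

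*Myl9* had 55.7, 52.4 and 55.6 CPM in control, against 47.5, 57 and 66.6 CPM in mutant libraries. The mutant values lay on both sides of the control values, and the log2 fold change was 0.06 (95% interval -0.23 to 0.36, edgeR adjusted p = 0.74). For *Acta2*, *Tagln* and *Myl9* alike, control library 1 was the highest and control library 2 the lowest of the controls, and mutant library 3 was the highest of the mutants. For *Myl9*, however, control libraries 1 and 3 were nearly equal. *Acta2* and *Tagln* kept nearly the same ratio in the controls, at 1.66, 1.67 and 1.59 CPM of *Acta2* per CPM of *Tagln*, against 2.05, 1.66 and 1.88 in mutant libraries.

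*Myh11*, the smooth muscle myosin heavy chain, had 5.81, 8.35 and 8.65 CPM in control, against 5.92, 4.94 and 6.27 CPM in mutant libraries. Control library 1 fell among the mutants here, although it was the highest control for *Acta2*. The log2 fold change was -0.41 (95% interval -0.84 to 0.01, edgeR adjusted p = 0.14). *Cnn1*, or calponin, which restrains actomyosin, was scarce, with 24 to 49 counts per library. It had 0.761, 0.532 and 0.729 CPM in control, against 0.406, 0.763 and 0.644 CPM in mutant libraries, and its 95% interval on the log2 scale ran from -0.92 to 0.60.

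*Des*, the intermediate filament desmin, showed the largest fitted difference of the 10 genes. It had 2.19, 2.02 and 1.39 CPM in control, against 1.3, 0.953 and 0.763 CPM in mutant libraries, so every mutant library was below every control library. The log2 fold change was -0.89 (SE 0.28, 95% interval -1.55 to -0.24), and it missed the threshold (edgeR adjusted p = 0.058). It passed in 4 of 15 alternatives, including an offset for GC content (-1.05, edgeR adjusted p = 0.043). With limma voom it was -0.64 (limma voom adjusted p = 0.17), and it did not pass when any single library was left out. The values rest on 45 to 141 counts in a library. An antisense gene, *Gm15179*, covers 3.94% of its 75-base runs.

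Genes of skeletal muscle were lower in the same libraries as *Des*. Of 20 such genes 14 were tested, and 10 of them fell and none rose, where 9.84% of all genes tested were lower past the threshold. *Acta1*, the skeletal muscle actin, fell from 9.16 ± 3.81 to 1.33 ± 0.0645 CPM (log2 fold change -2.78, edgeR adjusted p = 0.0018). *Myl1* and *Ckm*, the light chain and creatine kinase of muscle, fell with log2 fold changes of -3.83 and -4.32. The 19 skeletal muscle genes listed summed to 32.1, 51.9 and 17.4 CPM in control, against 4.9, 7.82 and 6.27 CPM in mutant libraries. The lowest control for *Des*, library 3, was also the lowest for this sum, but the orders differed otherwise. Among the controls *Des* was highest in library 1 and the sum in library 2. Among the mutants *Des* was highest in library 1, where the sum was lowest. Against this sum *Des* was relatively higher in mutant libraries, at 0.266, 0.122 and 0.122 CPM per CPM, than in control libraries, at 0.0682, 0.039 and 0.08. What part skeletal muscle had in the *Des* values was not tested. Without control library 2 the skeletal muscle genes called were 5, and with limma voom 6.

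**Figure D2:**
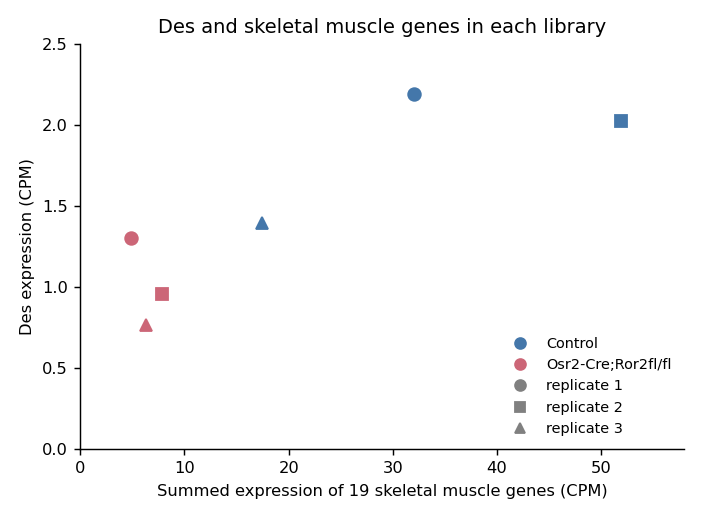
*Des* expression in CPM (vertical axis) against the summed CPM of the 19 skeletal muscle genes (horizontal axis), with a point for each of the 6 libraries. The 3 mutant libraries lie at sums from 4.9 to 7.82 CPM and the 3 control libraries at 17.4 to 51.9 CPM.

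Of the pericyte genes, *Mcam* was fitted higher and the other 3 lower. *Mcam*, the adhesion molecule CD146, had 54, 48 and 47.6 CPM in control, against 58.7, 64.6 and 66 CPM in mutant libraries. Every mutant library was above every control library, and *Mcam* rose by 0.34 on the log2 scale (SE 0.10, 95% interval 0.12 to 0.56, edgeR quasi-likelihood adjusted p = 0.041), or 26.6%. The call depended on the fit. *Mcam* passed in 6 of 15 alternatives, with adjusted p-values from 0.013 to 0.21, and with an offset for GC content its log2 fold change was 0.19 (edgeR adjusted p = 0.20). It stayed higher in all 15.

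*Rgs5*, the most abundant of the pericyte genes, had 117, 189 and 180 CPM in control, against 108, 91.6 and 125 CPM in mutant libraries. The groups overlapped only through control library 1, which lay below mutant library 3. The log2 fold change was -0.58 (SE 0.20, 95% interval -1.03 to -0.13) and missed the threshold (edgeR adjusted p = 0.068). Without control library 1 it was -0.78 (edgeR adjusted p = 0.024), and with the GC offset it was -0.29 (edgeR adjusted p = 0.25). *Rgs5* has a lower GC content, 41.8% over its exons, than the other 9 markers.

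*Kcnj8* encodes Kir6.1, the pore of the vascular ATP-sensitive potassium channel. It had 50.4, 44.7 and 44.6 CPM in control, against 41.9, 41.7 and 26.7 CPM in mutant libraries. The groups did not overlap, but mutant libraries 1 and 2 were close to the controls, and the log2 fold change of -0.34 did not pass the threshold (95% interval -0.73 to 0.05, edgeR adjusted p = 0.18). *Cspg4*, the proteoglycan NG2, had 29, 35.9 and 33.1 CPM in control, against 33.6, 28 and 28.5 CPM in mutant libraries. Its groups overlapped, and its log2 fold change was -0.12 (95% interval -0.39 to 0.15, edgeR adjusted p = 0.47).

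**Figure D3:**
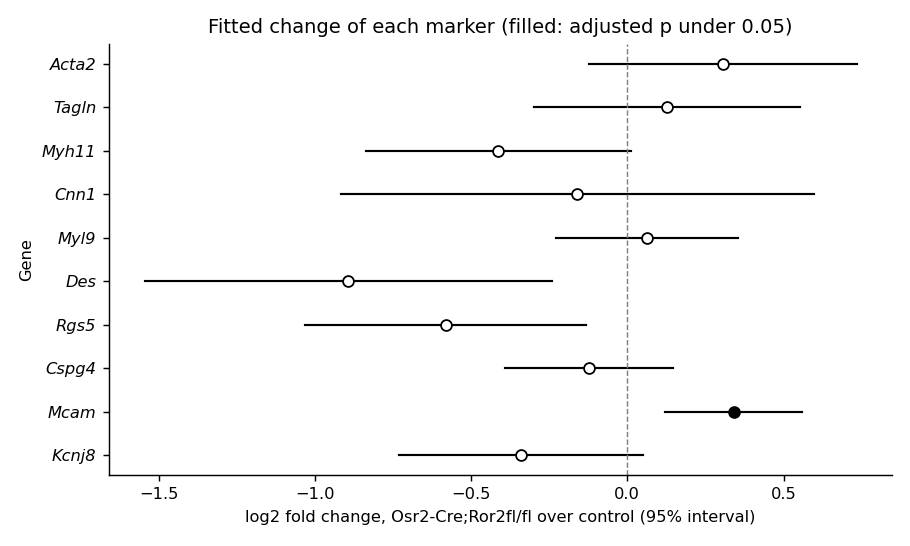
Fitted log2 fold change of each marker, Osr2-Cre;Ror2fl/fl over control, with its 95% interval, where a filled point has an adjusted p under 0.05. The interval of *Mcam* lies above 0, those of *Des* and *Rgs5* lie below it, and the other 7 intervals include 0.

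Of the 10 markers 1 was called at an adjusted p under 0.05, *Mcam*, which was higher. Of all 19330 genes tested, 20.2% were called, and 10.4% were higher and 9.84% lower. The groups did not overlap for 3 of the 10 markers, against 44.7% of all genes tested. The fitted changes were positive for 4 markers and negative for 6, with a median of -0.14 on the log2 scale, against 0.01 over all genes. The median was -0.05 for the 6 contractile genes and -0.23 for the 4 pericyte genes. Without control library 1 the markers called were 2, *Mcam* and *Rgs5*, and edgeR called none without control library 2, without control library 3, without mutant library 1 or without mutant library 3, where 2 or 3 had an unadjusted p under 0.05. With the replicate number as a block edgeR called none and 4 had an unadjusted p under 0.05. DESeq2 called 3 markers and limma voom 2. In bulk tissue, fewer mural cells and less RNA per cell cannot be told apart.

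Ratios of markers within a library were compared next. None of these ratios was among the planned tests, and they reuse the marker values given above. *Rgs5* exceeded *Acta2* by a factor of 2.5, 5.81 and 4.77 in control and of 2.47, 2.3 and 2.04 in mutant libraries, in CPM and without division by length. Control library 1 was thus close to mutant library 1, and the other controls stood apart (exact two-sided permutation test over libraries, p = 0.1, the smallest p that 3 against 3 allow). Relative to the sum of the 18 endothelial genes, *Rgs5* was at 0.285, 0.347 and 0.335 in control and at 0.208, 0.212 and 0.246 in mutant libraries. These groups did not overlap (exact permutation test, p = 0.1). For *Acta2* the same ratio was 0.114, 0.0598 and 0.0702 in control and 0.0839, 0.0921 and 0.121 in mutant libraries, and the groups overlapped (exact permutation test, p = 0.4). Over the 13 ratios computed, an exact permutation p of 0.1 became 0.26 after Benjamini-Hochberg adjustment. The ratios carry no offset for GC content, with which the fitted change of *Rgs5* was smaller, as given above.

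**Figure D4:**
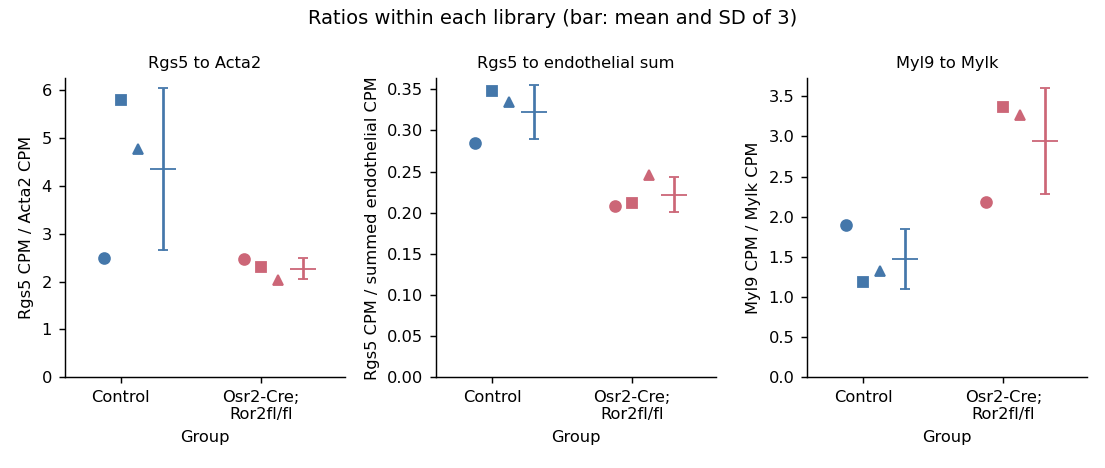
Ratio of *Rgs5* to *Acta2*, of *Rgs5* to the summed endothelial genes and of *Myl9* to *Mylk* in each library, with the mean and SD of the 3 libraries of each group. The mutant libraries are lower than the controls in the first and the second panel, with control library 1 nearest to them, and higher in the third.

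Of 28 other genes of smooth muscle, all tested, 6 fell and none rose. That is 21.4% called, against 20.2% of all genes called and 9.84% lower, with a median log2 fold change of -0.23. *Itga8*, an integrin of vascular and mesenchymal cells, fell from 16.6 ± 3.58 to 6.5 ± 1.37 CPM (log2 fold change -1.35, SE 0.21, edgeR adjusted p = 0.0054). *Cnn3*, the calponin of non-muscle cells, fell from 317 ± 15.8 to 197 ± 13.2 CPM (edgeR adjusted p = 0.0059). *Mylk*, the kinase that phosphorylates myosin light chain, fell from 38.5 ± 7.94 to 19.7 ± 2.49 CPM, which is -0.97 on the log2 scale (edgeR adjusted p = 0.0092). These 3 genes passed in all 15 alternatives. Of the 75-base runs of *Itga8*, *Cnn3* and *Mylk*, 3.66%, 16.1% and 3.55% also occur elsewhere. The other 3 that fell were *Ednra*, *Cald1* and *Aoc3*, chosen here after their values were seen. Leaving out control library 2 or control library 3 reduced the 6 to 3.

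Of 28 other pericyte genes 25 were tested, 3 fell and none rose. These 12% compare with 20.2% of all genes called and 9.84% lower, and the list had a median log2 fold change of -0.19. *Abcc9* encodes SUR2, the regulatory partner of Kir6.1 in the vascular potassium channel. It had 54.3, 76.7 and 72.4 CPM in control, against 38, 24.5 and 35 CPM in mutant libraries, or -1.06 on the log2 scale (SE 0.19, edgeR adjusted p = 0.0096). All mutant libraries were below all control libraries, and *Abcc9* passed in all 15 alternatives. *Kcnj8* per *Abcc9* was 0.928, 0.582 and 0.616 in control and 1.1, 1.7 and 0.764 in mutant libraries, a ratio chosen after the values were seen. The groups overlapped, and a difference between the channel's subunits was not shown (exact permutation test, p = 0.2). *Angpt1*, the mural ligand of the endothelial receptor Tie2, fell from 49.6 ± 2.4 to 33.4 ± 5.87 CPM (edgeR adjusted p = 0.022), but with the GC offset its log2 fold change was -0.19 in place of -0.57. *Ano1*, a calcium-activated chloride channel, fell from 42.3 ± 6.75 to 27.3 ± 4.05 CPM (edgeR adjusted p = 0.026). Without control library 2 or control library 3 the 3 became 1.

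SRF itself and most of its regulators did not pass the test. Of 16 such genes 14 were tested, of which 2 fell and none rose (14.3%, against 20.2% of all genes called and 9.84% lower). *Srf* had 35.6 ± 1.56 CPM in control and 37.3 ± 5.75 CPM in mutant libraries, and *Myocd*, the coactivator of smooth muscle, was scarce with 0.158 ± 0.0324 and 0.131 ± 0.0516 CPM. Both were chosen here for their role after their values were seen. *Prrx1*, a mesenchymal homeobox factor, fell from 46.7 ± 8.01 to 29 ± 3.48 CPM (edgeR adjusted p = 0.018), and *Tead1*, the DNA-binding partner of YAP, from 58 ± 3.71 to 41.7 ± 6.99 CPM (edgeR adjusted p = 0.041). With the GC offset *Tead1* no longer passed, and neither gene was called without control library 2 or without control library 3. *Tgfbr1* had 126 ± 2.43 CPM in control and 93.3 ± 17.7 CPM in mutant libraries and did not pass (edgeR adjusted p = 0.062).

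Of 22 genes that control myosin light chain, all tested, 6 fell and 1 rose. That is 31.8% called, against 20.2% of all genes called, 9.84% lower and 10.4% higher. The 7 became 3 without control library 2, without control library 3 or without mutant library 1. *Mylk* was among those that fell. Per *Mylk*, *Myl9* was at 1.89, 1.19 and 1.33 in control and at 2.18, 3.37 and 3.26 in mutant libraries (exact permutation test, p = 0.1), a ratio chosen after the values were seen. *Ppp1cb*, the catalytic subunit of the phosphatase that reverses the reaction, fell from 299 ± 20.1 to 167 ± 26.1 CPM (edgeR adjusted p = 0.0072). Of its 75-base runs, 15.9% also occur in other genes. The non-muscle light chain genes moved oppositely, as *Myl12a* fell from 137 ± 8.37 to 79.3 ± 1.46 CPM (edgeR adjusted p = 0.0016) and *Myl12b* rose from 171 ± 13.4 to 227 ± 7.32 CPM (edgeR adjusted p = 0.031). Of their 75-base runs, 14.6% of those of *Myl12a* and 15.6% of those of *Myl12b* occur in the other gene, and how such reads were counted is not given. *Myl12a* and *Myl12b* together summed to 309 ± 6.06 CPM in control and 306 ± 7.68 CPM in mutant libraries. *Rhoa*, the GTPase at the head of this pathway, had 215 ± 2.19 and 202 ± 21.6 CPM (edgeR adjusted p = 0.59) and was also named after its values were seen. The 4 lists together held 87 tested genes, of which 17 were called (19.5%, against 20.2% of all genes), 16 lower and 1 higher. Over all genes tested, 9.84% were called lower and 10.4% higher. The 17 became 6 without control library 2, 6 without control library 3, 9 without mutant library 1 and 26 without mutant library 3.

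**Figure D5:**
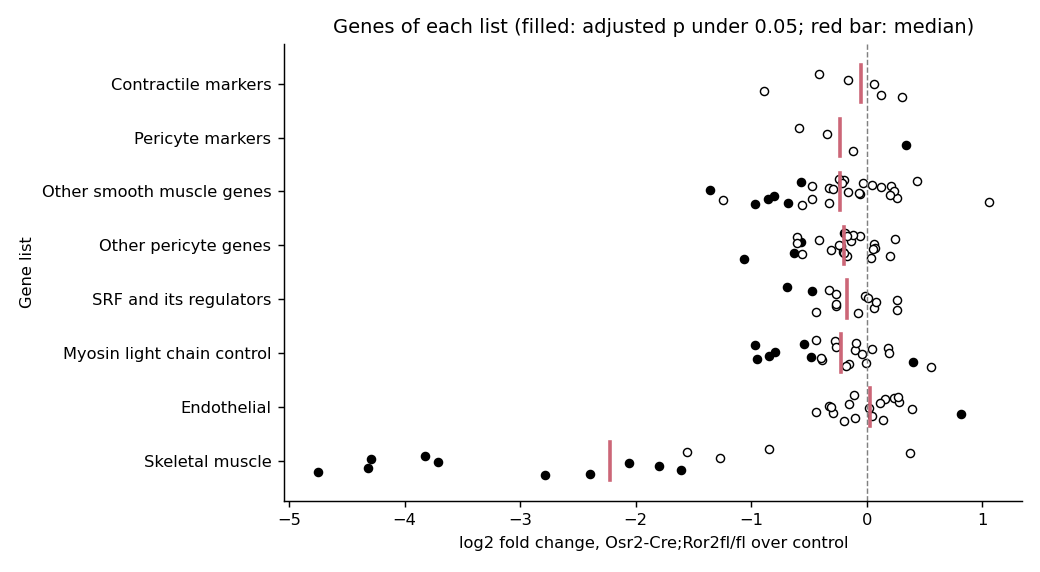
Log2 fold change of each tested gene, Osr2-Cre;Ror2fl/fl over control, in the marker lists, the 4 related lists and the endothelial and skeletal muscle lists, where filled points have an adjusted p under 0.05 and red bars are medians. The medians of the 4 related lists lie between -0.23 and -0.17 and that of the skeletal muscle genes at -2.23.

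Endothelial genes, whose cells the mural cells surround, gave 1 call in 18 (5.56%, against 20.2% of all genes called). *Egfl7*, a secreted endothelial protein, rose from 19 ± 1.18 to 33.4 ± 8.49 CPM (edgeR adjusted p = 0.016), and the median of the list was 0.03 on the log2 scale. Without control library 2 or without control library 3 none was called, and 2 were without control library 1 or without mutant library 2. The endothelial sum was 409 to 545 CPM in control and 433 to 522 CPM in mutant libraries. *Ets1* and *Robo4*, which had the next smallest p-values, did not pass the test. Of 7 erythroid genes 2 fell (28.6%, against 20.2% of all genes called and 9.84% lower). These were *Alas2* and *Hba-a1*, the latter from 239 ± 123 to 45.9 ± 30.2 CPM (edgeR adjusted p = 0.016). The erythroid genes summed to 784 to 1331 CPM in control and 245 to 942 CPM in mutant libraries. Without mutant library 1 none of the erythroid genes was called by edgeR, 1 was without mutant library 3 or without any 1 of the control libraries, and 5 were without mutant library 2 or with limma voom. Since 67.9% of the 75-base runs of *Hba-a1* also occur in another gene, its value is uncertain, and with that gene it summed to 578 ± 155 CPM and 224 ± 157 CPM. What part vessel content or blood had in the marker values was not tested.

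The mean log2 CPM of the 10 markers was compared with 9610 other genes of at least 10 CPM over the 6 libraries. The most similar were *Tmco1*, *Ddx5*, *Ndufaf1*, *Tpm4* and *Vapb*, with Pearson correlations between 0.994 and 0.996. The markers themselves correlated with their mean at -0.72 (*Mcam*) to 0.69 (*Rgs5*). With 6 points, high values are reached by many of 9610 genes, and they are given as a description. *Tpm4*, a tropomyosin, had 175, 162 and 172 CPM in control, against 117, 113 and 138 CPM in mutant libraries.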

How the data were processed

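RNA-seq was performed on 3 control and 3 Osr2-Cre;Ror2fl/fl pulp libraries with single-end reads of 75 cycles. The authors deposited estimated counts per gene without scaling, of which 47.8% were whole numbers. The methods name TopHat 2 and the mm10 genome, whereas the submitters' processing notes name STAR 2.6.1d and Partek. The counting program, the annotation and the use of strand are not given in the sources used here. The 6 columns of other samples in the table were not used, nor was the authors' scaled table. Counts were rounded, since the design assumed that they might be estimated.

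All 27506 genes entered 1 fit. Genes were kept with filterByExpr, scaled with TMM and tested with edgeR's quasi-likelihood test (edgeR 4.0.16, limma 3.58.1, DESeq2 1.42.0, R 4.3.3) without a block, with Benjamini-Hochberg adjustment over the 19330 genes tested. Intervals are 95% intervals of the unshrunken coefficient. CPM used TMM library sizes, and permutations were exact, on log2 CPM (prior count 2) or on log2 ratios. Exon lengths, positions and shared stretches of 75 bases (20 or more counted as sharing) came from GENCODE M21 on mm10. No library pair of a group agreed within sampling noise. Genes named are the markers, *Ror2*, the 3 genes with the smallest p of each list, those sharing sequence with a marker and the 5 most similar genes, with additions identified in the text. Members and lists were chosen with earlier results of these data known. Alternatives were DESeq2, voom with quality weights, other scalings and filters, offsets for GC content and length, a replicate block, sums with sharing genes, and leaving out each library. The result of 1 gene of these lists is not reported here.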

Additional observations from a re-analysis of the deposited data

How the results depend on the processing

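The number of markers called was 1 in the fit reported. It was 2 with library size scaling, 3 with DESeq2's Wald test, 2 with limma voom, 0 without the filter and 0 with the replicate block, and it ran from 0 to 2 when single libraries were left out. With the GC offset 1 was called, *Des* in place of *Mcam*. Of all genes, 3906 were called in the fit reported, 6341 with limma voom, 2013 with the replicate block and 872 to 5001 without single libraries. Of the 4 related lists 17 genes were called, 31 with limma voom, 11 with the replicate block and 6 to 26 without single libraries. The cause of these differences was not tested. The direction of 7 markers and *Ror2* held in every alternative. *Tagln* changed sign with the GC and length offset (-0.00542 on the log2 scale), without control library 2 (-0.00492) and without mutant library 3, and ran from -0.0709 to 0.26 without single libraries. *Cnn1* changed sign without mutant library 1, and ran from -0.35 to 0.060 without single libraries. *Myl9* changed sign with limma voom (-0.00346), the GC offset (-0.13), the GC and length offset (-0.28) and without mutant library 3, and ran from -0.0677 to 0.18 without single libraries. None of these values passed the threshold. For 40 other named genes, none changed direction in 599 values, while 80 lost and 26 gained the threshold. Scaling by library size changed the split of all calls from 2003 higher and 1903 lower to 1644 higher and 2070 lower. Libraries with the same number did not deviate together, with correlations of their deviations from the group means of -0.10, -0.08 and -0.00. The paper's methods mention 3 pairs of samples, and same-numbered control and mutant libraries carry the same index in their titles. Whether the number stands for a true pairing is not given, and these correlations cannot settle it.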

Other observations

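The 5 lists of cell types not described above gave between 0 and 3 calls each. Of 11 genes of dental follicle and bone 3 were called (27.3%, against 20.2% of all genes). *Aspn* fell from 13.5 ± 4.07 to 6.18 ± 1.1 CPM and *Postn* from 142 ± 31 to 88.5 ± 4.56 CPM, while *Spp1* rose from 14.9 ± 4.27 to 34.9 ± 17.6 CPM. With the GC offset *Aspn* went from -1.13 to -0.53 on the log2 scale (edgeR adjusted p = 0.14) and *Postn* from -0.68 to -0.39 (edgeR adjusted p = 0.11), and edgeR called none of the 11 without control library 2, without control library 3 or without mutant library 1. Of 10 macrophage genes 1 was called (10%), *Adgre1*, which was lower and passed in 6 of 15 alternatives (adjusted p from 0.014 to 0.18), whereas the median of the list was 0.31 on the log2 scale. *Fcgr3* and *C1qb*, with log2 fold changes of 0.73 and 0.62, were above the controls in every mutant library but did not pass (edgeR adjusted p = 0.069 and 0.072). The macrophage count was 0 without control library 2, without control library 3 or without mutant library 2, 2 without mutant library 1 and 4 without mutant library 3. Of 14 genes of the dental epithelium 1 was called (7.14%), *Odam*, which fell from 204 ± 6.86 to 139 ± 11.1 CPM. That count was 0 without control library 2, without control library 3 or with the GC offset, 4 without control library 1 or without mutant library 2, and 8 with limma voom. Among Schwann cell genes *S100b* rose from 2.31 ± 0.307 to 4.34 ± 0.533 CPM and passed in 13 of 15 alternatives, and *Gap43* fell from 5.36 ± 0.537 to 2.75 ± 1.2 CPM and passed in 7. Of 9 odontoblast genes tested edgeR, DESeq2 and limma voom called none, and none had an unadjusted p under 0.05 in the edgeR fit.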
